A study of Mus musculus with 3 samples.

Results

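The genes described here encode the signalling part of the T cell receptor complex and some of the molecules that work beside it. They are the CD3 chains Cd3d, Cd3e and Cd3g, the zeta chain Cd247, the kinases Lck and Zap70, the adaptor Lat, the adhesion molecule Cd2, the surface glycoprotein Thy1, and the interleukin receptor chain Il2rb. The group was chosen by the level of Cd3e, which was strongly higher on the later arrays of this series, and the question was whether the other genes followed it. The values of Cd3e are thus a description, and only the other 9 genes bear on the question. All 10 genes were found on the array through the RefSeq transcripts of 12 probes, out of 19752 named genes in all, and 9 of the 10 were well above background on all 3 arrays.

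The arrays measured CD11b+Gr1-F4/80+ cells, labeled as skin resident macrophages, that were sorted by FACS from whole backskin (epidermis and dermis) of CD1 mice. They came from mice at day 42 after birth, taken here as early telogen (Te), at day 55 (mid telogen, Tm) and at day 69 (late telogen, Tl). Telogen is the resting phase of the hair follicle, and no group was treated or genetically modified. RNA of 3 littermates was pooled for each stage, amplified as a whole transcriptome because the amounts were very small, and hybridized with the Cy3 dye to 1 array. With 1 array per stage there is no replicate error, and no p-value is given for any difference. The antibodies named for the sort recognize CD11b, F4/80 and Gr1, and no T cell antigen was among them.

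The array deposited for Tm and the array deposited for Tl are exchanged in the log2 table that the authors also deposited. The changes from Te in its Tm column matched the scanner file of Tl with a correlation of 1.00 over 36396 probes, and its Tl column matched that of Tm in the same way over 36390 probes. Here Tm and Tl mean the scanner files as they are assigned to the samples. Any order between Tm and Tl turns around with the other assignment, whereas a difference shared by both later arrays against Te does not depend on it.

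In a T cell, the receptor that binds antigen has no signalling domain of its own. The delta, epsilon, gamma and zeta chains carry short tyrosine motifs in their tails, the immunoreceptor tyrosine-based activation motifs, which Lck phosphorylates. Zap70 then docks on these tails and phosphorylates Lat, on which further enzymes assemble. The complex reaches the cell surface only when its chains are put together, so T cells are known to express the CD3 genes jointly. In mouse skin, the epidermis holds a resident population of gamma-delta T cells, which lie between the keratinocytes next to the Langerhans cells. Cd2, Thy1 and Il2rb are broader markers. Cd2 is also found on natural killer cells, Thy1 on fibroblasts and other stromal cells, and Il2rb, the shared beta chain of the receptors for interleukin 2 and interleukin 15, on natural killer cells.

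The CD3 genes are neighbours on mouse chromosome 9. In the RefSeq annotation of GRCm38.p6, Cd3g lies at chr9:44969572-44980431 on the minus strand, Cd3d at chr9:44981769-44987052 on the plus strand, and Cd3e at chr9:44998735-45009663 on the minus strand. Cd3g and Cd3d thus point away from each other, with 1355 bases between their start sites in the RefSeq promoter table, and the start site of Cd3e lies 27825 bases beyond that of Cd3d. The zeta chain is encoded elsewhere, at chr1:165779952-165871153. The upstream sequences of the 3 neighbours are shown because these genes share a locus and differed in the size of the changes described below. Each covers 198 bases, from 250 to 53 bases before the start site, and keeps clear of the annotated gene. Each is written 5′ to 3′ on the strand of its gene, and capitals mark GGAA or its complement TTCC, the core that Ets family factors recognize. The sequences are those of the reference genome, and the CD1 mice may differ from it.
Cd3g (GRCm38.p6, chr9:44980484-44980681, minus strand): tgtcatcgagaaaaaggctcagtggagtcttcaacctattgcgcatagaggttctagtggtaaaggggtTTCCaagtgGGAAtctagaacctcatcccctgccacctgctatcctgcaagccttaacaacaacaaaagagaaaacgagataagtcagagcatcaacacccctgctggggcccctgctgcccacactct
Cd3d (GRCm38.p6, chr9:44981536-44981733, plus strand): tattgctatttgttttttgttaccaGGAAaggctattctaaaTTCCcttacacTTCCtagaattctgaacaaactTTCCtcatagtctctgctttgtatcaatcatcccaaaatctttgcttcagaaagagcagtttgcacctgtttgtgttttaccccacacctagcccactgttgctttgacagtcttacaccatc
Cd3e (GRCm38.p6, chr9:45009664-45009861, minus strand): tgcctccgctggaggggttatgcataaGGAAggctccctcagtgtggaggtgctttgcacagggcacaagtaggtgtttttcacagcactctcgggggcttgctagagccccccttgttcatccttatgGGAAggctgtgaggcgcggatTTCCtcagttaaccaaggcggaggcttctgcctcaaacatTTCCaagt

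The Ets core was present 2 times in the window of Cd3g, 4 times in that of Cd3d and 4 times in that of Cd3e. It was also present in 89.0% of the 32851 promoter windows of this length in the table, so its presence does not set these genes apart. The letters TGTGGT, which Runx factors bind, and TATAAA, the TATA box, were in none of the 3 windows on either strand. They were in 11.4% and 9.08% of all windows, respectively. The GATA motif AGATAA occurred once, upstream of Cd3g, and in 8.34% of all windows. RefSeq promoters were found for 7 of the 10 genes. Cd2, Thy1 and Il2rb are named only.

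A level below is the log2 of a probe's processed signal relative to the 75th percentile of its own array, so that a probe at that percentile has a level of 0. Levels are compared between arrays for the same probe and not between probes. The summed level of a marker list, given further on, adds its brightest probes and is weighted toward those that shine most. Where a gene is called dim, its probe was not well above background. A probe counted as measured on an array when the scanner software called at least 0.5 of its spots well above background, and where only 1 side of a comparison was measured the difference is a lower bound. The error given as ± is technical. It is the SD of a difference between arrays expected from the median scatter of probes with 10 or more spots at a similar level (0.24, 0.23 and 0.18 on the Te, Tm and Tl arrays below a level of -2, but 0.08, 0.08 and 0.10 above a level of 0). It does not hold the variation between mice, sorts or amplifications, which was not measured. At Te 71.4% of all probes were well above background, at Tm 59.6% and at Tl 68.7%.

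Compared with Te, 5 of the 10 genes were at least 2-fold higher at Tl (Cd3e, Cd3g, Cd2, Thy1 and Il2rb). Another 2 were at least 2-fold lower (Zap70 with its brightest probe, and Lat), and 3 lay between (Cd3d, Lck and Cd247). Without Cd3e, these were 4 of 9 higher and 2 of 9 lower. The second probe of Zap70 went the other way, at least 2.56-fold above Te. Cd2 is counted with its brightest probe, and its second probe was 1.89-fold above Te. Of the 16164 named genes with a value in the same comparison, 22.2% were 2-fold higher and 20.7% were 2-fold lower. The median difference was 0.54 over the 10 genes, 0.07 without Cd3e, and 0.15 over all named genes. Cd3g, at 2.03-fold, and Thy1, at 2.01-fold, stood so close to the 2-fold line that the technical error does not place them on either side. With a percentile taken over the probes measured on all arrays, or with normexp background correction, the count fell to 3, namely Cd3e, Cd2 and Il2rb.

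At Tm, 5 of the 10 genes were again at least 2-fold above Te (Cd3e, Cd247, Cd2, Thy1 and Il2rb), and without Cd3e these were 4 of 9. Zap70 was 2-fold lower with its brightest probe, whereas its second probe was at least 1.54-fold higher. In this comparison 29.1% of the 15843 named genes with a value were 2-fold higher and 16.9% were 2-fold lower. The median was 1.07 over the 10 genes, 0.71 without Cd3e and 0.22 over all named genes. Both comparisons use the same Te array, so one does not repeat the other. Only Il2rb at Tl (10.9-fold) and Cd3e at Tm (18.4-fold) passed the 10-fold line that the methods of the study set, which 0.668% of the named genes passed at Tl and 1.12% at Tm.

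**Figure D1:**
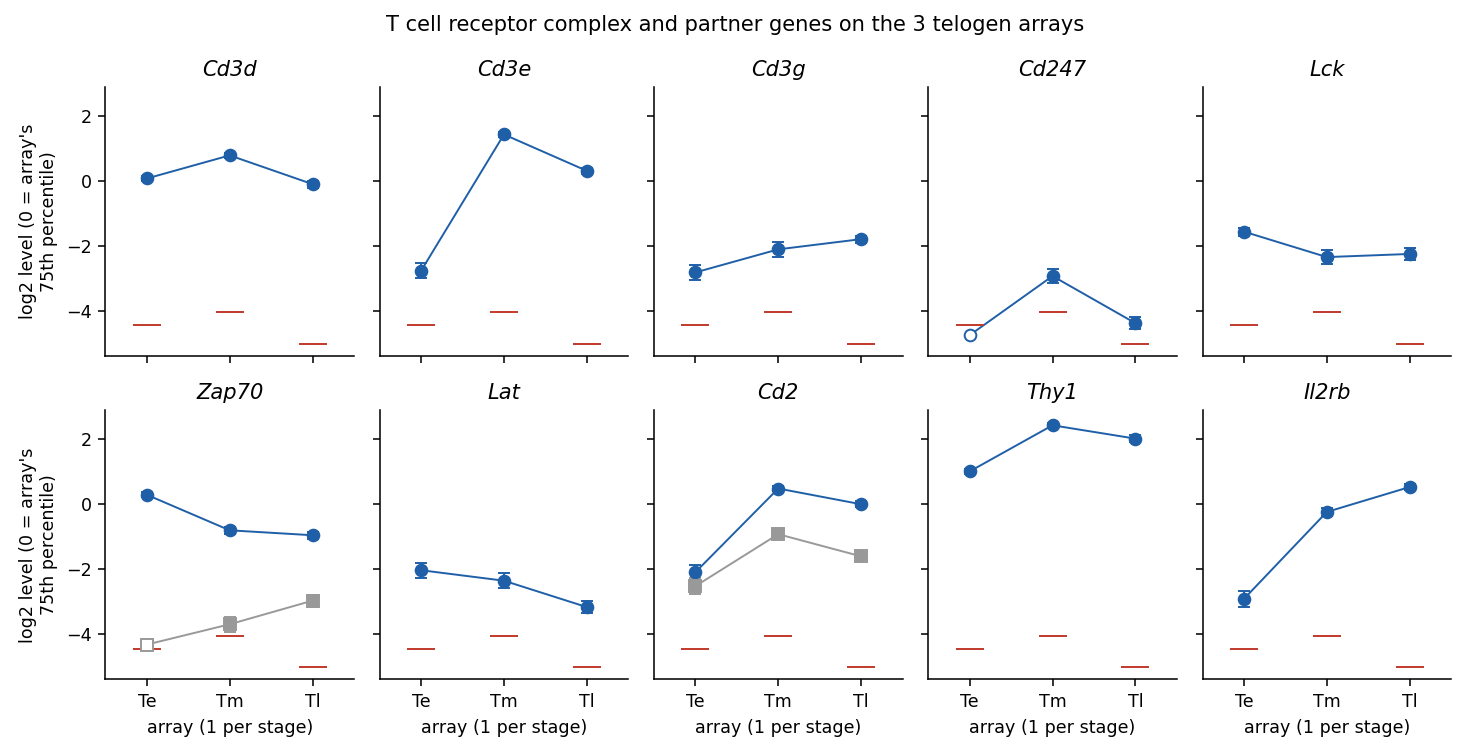
Level of each gene on the Te, Tm and Tl arrays, as log2 relative to the array's 75th percentile, with 1 array per stage. Blue circles are the brightest probe of a gene, gray squares its second probe, hollow symbols are not well above background, bars are the technical SD of repeated spots, and red dashes are the lowest level well above background on that array. Cd3e, Cd2 and Il2rb were lowest at Te, whereas the brightest probes of Lck, Zap70 and Lat were highest there.

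The CD3 chains differed in how far they moved. At Tm all 4 lay above Te under every way of processing the scanner files that gave a value, while at Tl the direction of Cd3d depended on it. Cd3e, the epsilon chain, had a level of -2.76 (Te), 1.44 (Tm) and 0.32 (Tl), with signals of 61.3, 1350 and 1159 on the scanner's linear scale. It was 18.4-fold higher at Tm (4.20 ± 0.25 on the log2 scale) and 8.45-fold higher at Tl (3.08 ± 0.26) than at Te. These are the values for which the group was chosen. The gene stayed above 2-fold under all 10 ways of processing the scanner files, between 2.23 and 4.24 at Tl and between 3.33 and 4.76 at Tm. Several of these ways cannot change a gene with a single probe measured on all arrays, namely the rules for dim probes and for several probes. Keeping outlier spots moved Cd3e at Tl only from 3.0783 to 3.0795. Counts of ways, here and below, thus repeat near-identical values, and the ranges say more.

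Cd3d, the delta chain, which pairs with epsilon in the complex, had levels of 0.09 (Te), 0.80 (Tm) and -0.09 (Tl). The 3 arrays thus lay close together, with the highest level at Tm. The difference from Te was 0.71 ± 0.11 at Tm, which is beyond the technical error but below 2-fold, and -0.17 ± 0.13 at Tl. The Tl difference was below 0 in 8 of the 10 ways of processing and above it in the other 2. Several of the 8 repeat the reported value because they cannot change a gene with a single probe. At Te the probe of Cd3d gave a signal of 439 and was well above background, so a CD3 transcript was already read on the array where Cd3e was lowest.

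Cd3g, the gamma chain, had levels of -2.81 (Te), -2.10 (Tm) and -1.78 (Tl). It was lowest at Te, and its levels on the later arrays differed by 0.31 ± 0.25. The difference from Te was 0.71 ± 0.33 at Tm and 1.02 ± 0.26 at Tl. Both were above 0 under all 10 ways of processing, with a range of 0.25 to 1.32 at Tm and of 0.31 to 2.19 at Tl. The rise of Cd3g was thus smaller than that of Cd3e in both comparisons, as these were processed here.

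Cd247, the zeta chain, which carries more of the tyrosine motifs than any other chain, was close to the background. Its level at Te, -4.74, was not well above background, and it was measured at Tm (-2.92) and at Tl (-4.37), where it was near the lowest level that the Tl array could measure (-5.01). The Tm array was at least 2.87-fold above Te, whereas at Tl the bound was only 1.05-fold and says little. Between the later arrays, both of which measured the gene, Tl was lower than Tm by a log2 difference of -1.45 ± 0.29. With normexp background correction the Tm bound fell to 0.44.

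Of the kinases and the adaptor, Lck and Lat lay below Te on both later arrays as processed here, and the 2 probes of Zap70 disagreed. Lck, the kinase that starts the cascade, had levels of -1.55 (Te), -2.34 (Tm) and -2.24 (Tl). It was highest at Te, and Tm and Tl differed by less than the technical error (0.10 ± 0.29). The difference from Te was -0.78 ± 0.26 at Tm and -0.69 ± 0.22 at Tl, neither of which reached 2-fold. Without scaling of the arrays the Tl difference turned to 0.48, in a setting where the median of all named genes was 1.32.

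Zap70 was read by 2 probes that moved in opposite directions, so that no direction can be given for the gene. Its brighter probe had levels of 0.30 (Te), -0.80 (Tm) and -0.95 (Tl), which is 2.14-fold lower at Tm (-1.09 ± 0.14) and 2.37-fold lower at Tl (-1.25 ± 0.13). The dimmer probe was not well above background at Te, and had levels of -3.69 at Tm and -2.97 at Tl. It was at least 1.54-fold above Te at Tm and at least 2.56-fold above Te at Tl. Both probes were assigned to the same RefSeq transcript, and where on it each probe lies is not analysed here. With the median over the 2 probes, the Tl difference of the gene was 0.05, and Zap70 was then not among the lower genes.

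Lat, the membrane adaptor downstream of Zap70, had levels of -2.03 (Te), -2.35 (Tm) and -3.16 (Tl). The signals behind them were nearly alike (102, 97.4 and 103), and the order of the levels comes from the scale of the arrays, whose 75th percentiles were 414, 497 and 927. The scaled difference from Te was -0.32 ± 0.33 at Tm, within the technical error, and -1.14 ± 0.30 at Tl. Without scaling the Tl difference was 0.03. None of Lck, Zap70 (brighter probe) and Lat was higher on a later array than at Te after scaling to the 75th percentile.

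**Figure D2:**
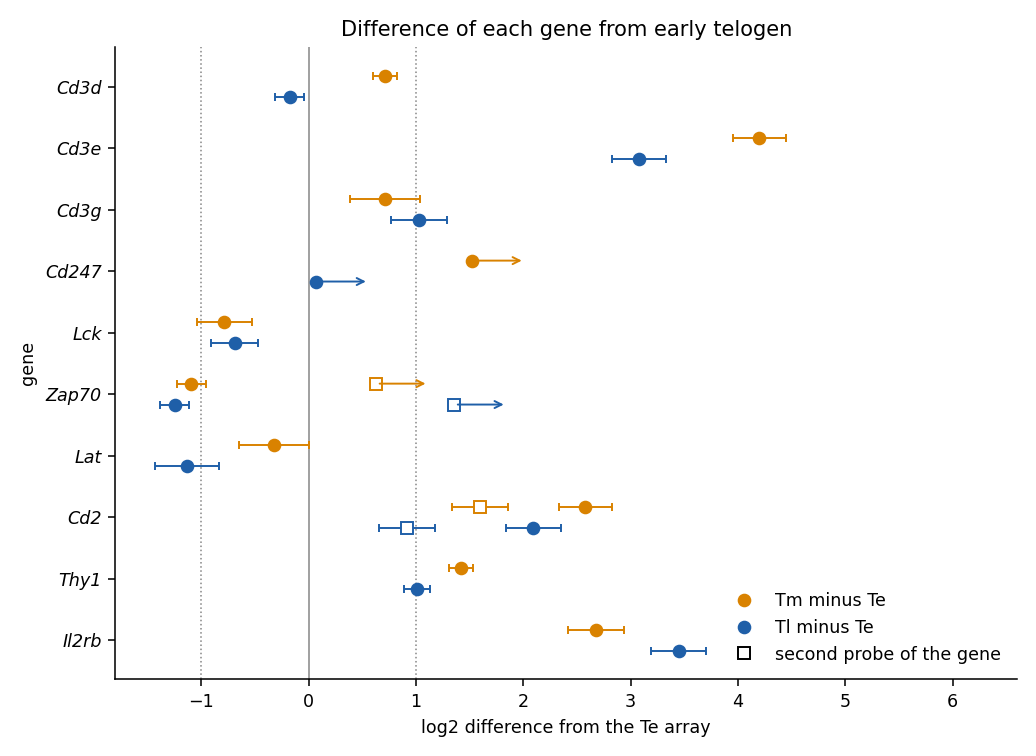
Log2 difference of each gene from the Te array at Tm (orange) and at Tl (blue), with bars for the technical SD of the difference and dotted lines at 2-fold. Filled circles are the brightest probe, open squares the second probe of Zap70 and Cd2, and arrows mark lower bounds. Cd3e, Cd2 and Il2rb lie above 2-fold at both stages with their brightest probes, whereas Lck, Lat and the brightest probe of Zap70 lie below 0.

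The 3 surface molecules with a wider expression were all higher on the later arrays. Cd2, which binds CD48 on other cells and strengthens the contact of T cells and natural killer cells with them, had levels of -2.09 (Te), 0.49 (Tm) and 0.00 (Tl) with its brightest probe. This probe was 5.98-fold above Te at Tm (2.58 ± 0.25) and 4.27-fold at Tl (2.09 ± 0.26). The second probe of Cd2 is printed 10 times on the array, and is the only one of the 12 probes whose scatter could be read from its own spots. Its spots ranged from -2.81 to -2.20 at Te (10 spots). At Tm the range was -1.09 to -0.78 (8 spots, with 2 outliers left out), and at Tl -1.71 to -1.44 (10 spots). The spots of the 3 arrays did not overlap, but those of an array share 1 pooled RNA. Their scatter is technical, and how many other probes separate in this way was not counted. The differences of this probe from Te were smaller than those of the first probe, 1.60 at Tm and 0.92 at Tl. The probes thus agree in direction and not in size.

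Thy1, a marker of T cells that is also carried by stromal cells, had levels of 1.02 (Te), 2.44 (Tm) and 2.03 (Tl). It was lowest at Te, and was 2.68-fold higher at Tm (1.42 ± 0.11) and 2.01-fold higher at Tl (1.01 ± 0.12). All 10 ways of processing left Thy1 above Te, and 7 of them placed it above 2-fold at Tl. Most of these 7 repeat the reported 2.01-fold, and the Tl range was 0.80 to 2.17 on the log2 scale.

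Il2rb had levels of -2.91 (Te), -0.23 (Tm) and 0.54 (Tl), with signals of 55.0, 423 and 1344. It was 6.40-fold above Te at Tm (2.68 ± 0.26) and 10.9-fold at Tl (3.45 ± 0.26), the largest Tl difference among the 10 genes. It was above 2-fold under all 10 ways of processing, between 1.62 and 3.24 at Tm and between 2.31 and 4.61 at Tl.

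By the count of genes past 2-fold, the later arrays differed less from each other than either did from Te. None of the 10 genes was 2-fold higher at Tl than at Tm, and Cd3e (-1.12 ± 0.13) and Cd247 (-1.45 ± 0.29) were 2-fold lower. Among 14846 named genes with a value in this comparison, 7.85% were 2-fold higher and 11.3% were 2-fold lower. The median was -0.45 over the 10 genes and -0.15 over all named genes. Single genes did not all follow that count. Cd3d was lower at Tl by a log2 difference of -0.89 ± 0.14, more than it differed from Te on either later array. Lat was lower by -0.81 ± 0.29, more than it differed from Te at Tm (-0.32), while Il2rb was higher by 0.77 ± 0.15.

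**Figure D3:**
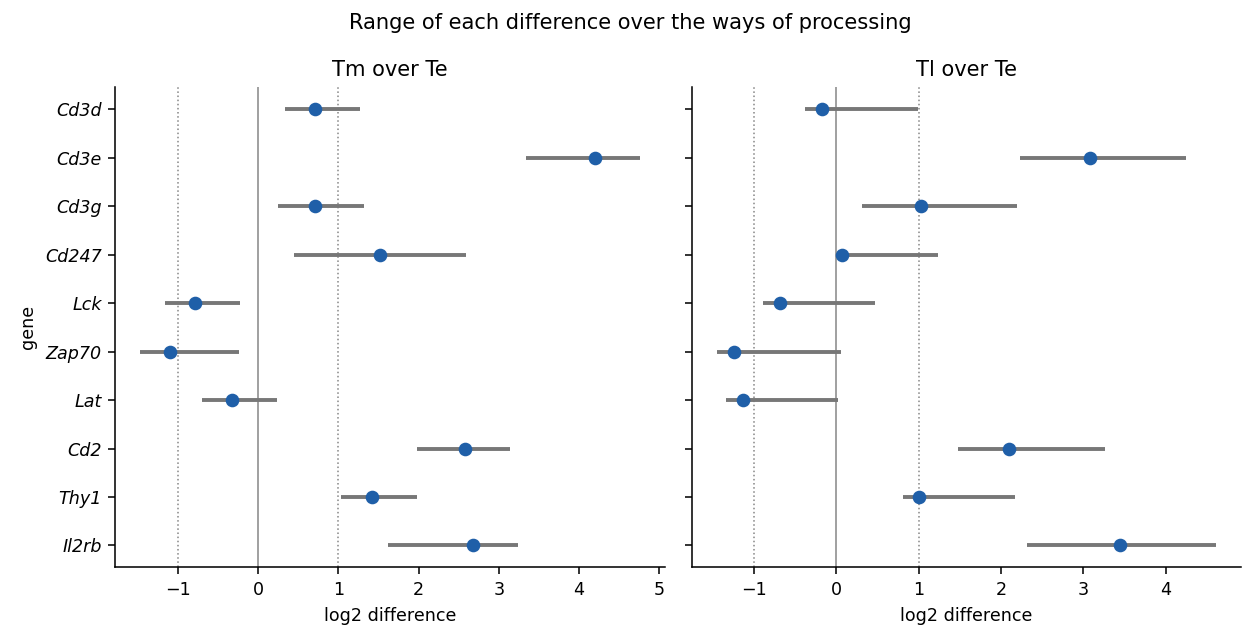
Log2 difference from Te of each gene at Tm (left) and at Tl (right). The point is the value as reported, and the bar runs from the lowest to the highest value over the ways of processing the scanner files that gave a value (10, but 7 for Cd247 at Tl and 9 at Tm). The bars of Cd3e, Cd2 and Il2rb stay above 2-fold (dotted line at 1) throughout, whereas those of Cd3d, Lck, Zap70 and Lat at Tl cross 0. The second probe of Cd2 on its own, 0.92 above Te at Tl, is not drawn.

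The other genes of the pathway were taken from lists of T cell co-receptors and co-stimulatory molecules, receptor signalling, the interleukin 2 receptor pathway and T cell transcription factors. Outside the 10 genes these lists hold 87 named genes. At Tl, 74 of them had a value, 18 were 2-fold higher and 15 were 2-fold lower, with a median difference of 0.04. At Tm, 73 had a value, 20 were 2-fold higher and 9 were 2-fold lower, with a median of 0.08. These shares are near those of all named genes that were 2-fold higher (22.2% at Tl and 29.1% at Tm).

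Of the signalling list, 9 of 32 genes with a value were 2-fold higher at Tl and 2 were lower, with 11 and 2 at Tm. Lcp2, the SLP-76 adaptor that works together with Lat, differed from Te by 1.72 at Tl and 1.86 at Tm. Malt1 (1.89 and 1.37) and Bcl10 (1.87 and 1.79), which join antigen receptors to NF-kappaB in lymphocytes and also act in myeloid cells, and Nfatc3 (1.98 and 1.68), a calcium-regulated transcription factor, were also higher. The second probe of Nfatc3 gave 0.70 at Tl and 0.64 at Tm. Ptprc, the CD45 phosphatase of all leukocytes, which activates Lck, was lower by -1.27 at Tl and -1.62 at Tm. Trat1, Themis, Ubash3a, Sh2d1a, Txk and Sos1 were dim on all 3 arrays. The first 5 of these are genes with a known role in T cells, and all 6 were singled out after their values were seen.

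Of the co-receptor and co-stimulation list, 15 genes had a value at Tl, of which 3 were 2-fold higher and 5 lower. Among 14 genes with a value at Tm, 2 were higher and 3 lower. Cd4, which macrophages and T helper cells can both carry, did not move with its brightest probe (0.01 at Tl and 0.36 at Tm) and was lower with its other probe (-2.49 and -1.57). With its brightest probe, Cd8a had levels of -3.80 at Te and -2.99 at Tl and was not well above background at Tm. Its other probe was well above background only at Tm (-3.20), with a lower bound of 1.24 over Te. The probes thus disagree, and Cd8b1 was below background throughout. Lag3 (-2.95 at Tl and -0.65 at Tm), an inhibitory receptor, and Cd6 (-1.94 and -1.57) were lower, and so were Cd226 (-1.49 at Tl and a bound of -1.47 at Tm) and the brightest probe of Tnfrsf9 (-1.16 and -0.52), whose second probe had a lower bound of 0.54 at Tm. The 3 higher genes at Tl were Cd96, dim at Te, with lower bounds of 2.37 at Tl and 0.63 at Tm, Cd27, with a lower bound of 1.12 at Tl and dim at Te and Tm, and Cd7 (1.09 and 1.93). The second probe of Cd27 gave -0.36 at Tl. Cd96 and Cd27 were named after their values were seen. Cd5, a regulator of receptor signalling chosen after its values were seen, was 0.52 above Te at Tl and 2.02 at Tm. No probe could be named for the constant regions of the alpha, beta, gamma and delta receptor chains, so that the antigen-binding part of the receptor is not analysed here.

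In the interleukin 2 receptor pathway, 2 of 11 genes with a value were 2-fold higher at Tl and 3 were lower, and at Tm these were 3 and 1. The genes closest to Il2rb did not share its difference. Il2rg, the common gamma chain that completes its receptors, was -0.67 from Te at Tl and -0.68 at Tm, Il15 was -0.56 and -0.45, and the alpha chain Il2ra was dim on all 3 arrays (these 3 were chosen after their values were seen). Il15ra was lower (-1.05 at Tl and -0.55 at Tm), as was the kinase Jak3 (-1.43 and -0.61). Il7r, the receptor for interleukin 7 on lymphocytes, was higher (2.57 and 2.52), and so was Stat5b (1.10 and 1.60).

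Among the T cell transcription factors, 4 of 16 genes with a value were 2-fold higher and 5 lower at Tl, and 4 and 3 at Tm. Gata3, which acts in T cells and also in the epidermis, was 3.04 above Te at Tl and 2.18 at Tm. Runx3, which acts in cytotoxic T cells and also in Langerhans cells, was 2.95 and 3.40 above Te. Ikzf3 (-2.56 and -2.42), a lymphocyte factor, and Lef1 (-1.71 and -0.42) were lower. The median of this list was -0.16 at Tl and 0.09 at Tm, both below the median of all named genes.

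**Figure D4:**
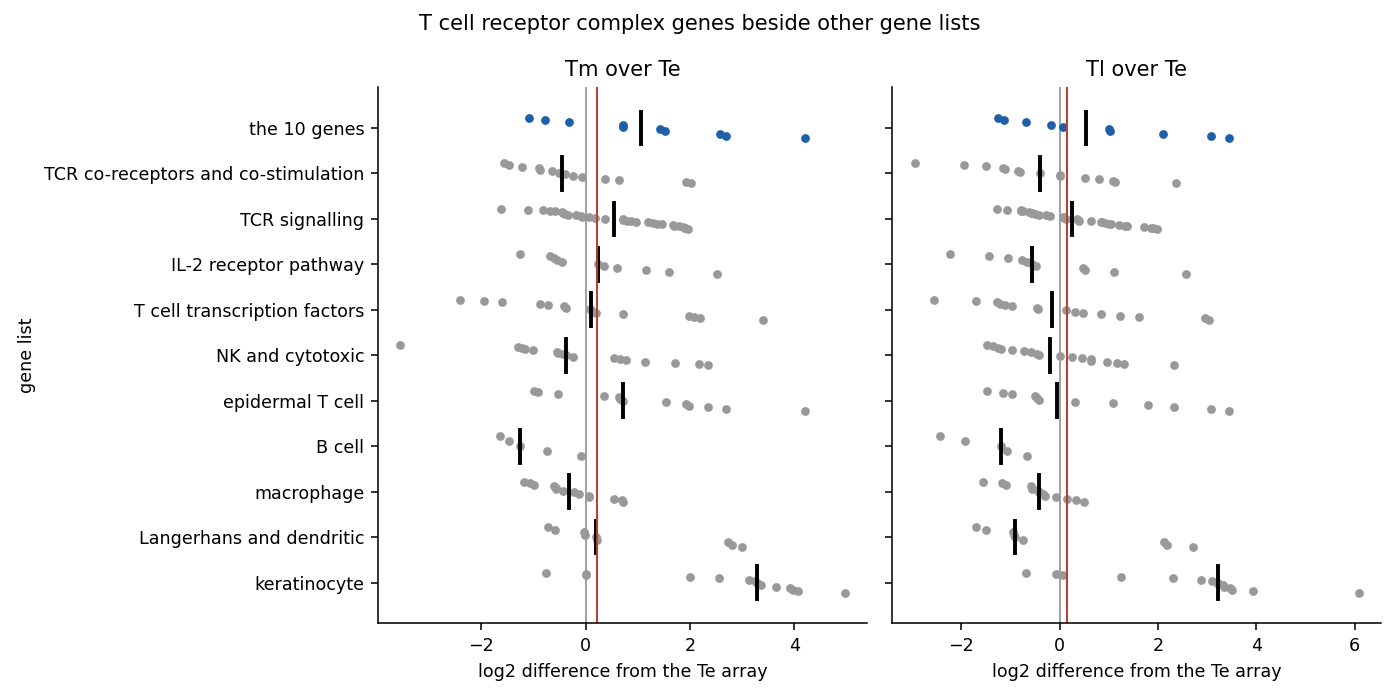
Log2 difference from the Te array at Tm (left) and at Tl (right) for the genes of each list that had a value (points, bounds included), with the list's median as a black bar and the median of all named genes as a red line. The 10 genes of the receptor complex spread from below -1 to above 3 at both stages, and the keratinocyte list has medians of 3.29 at Tm and 3.21 at Tl.

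Markers of other cells moved between the same arrays, and their part in the values above was not tested. The sorted cells carried the defining markers of macrophages on every array: all 14 named genes of that list were well above background, and Adgre1, which encodes F4/80, differed from Te by 0.33 at Tl and 0.69 at Tm, and Csf1r by 0.16 and 0.70. Itgam, which encodes CD11b, was -1.10 at Tl and -0.23 at Tm with its brightest probe, and its other probes gave -0.79 and -0.13 at Tl and -1.06 and -1.08 at Tm. Counted with the brightest probe of each gene, none of the macrophage genes was 2-fold higher on a later array, 3 were lower at Tl and 2 at Tm. Another probe of Csf1r, well above background on every array, was more than 2-fold above Te at Tm, but not at Tl. The summed level of this list, in multiples of the 75th percentile, was 1046 on the Te array, 970 on the Tm array and 630 on the Tl array. Its largest term on every array was the brightest probe of Itgam, with levels of 8.95 (Te), 8.73 (Tm) and 7.85 (Tl). The sum therefore leans on that probe and is not a measure of macrophages.

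Most keratinocyte markers were higher on the later arrays. Of 15 keratinocyte genes, all well above background on every array, 12 were 2-fold higher at Tl and 12 at Tm, with Krt5 at 3.32 and 3.97 and Krt14 at 2.88 and 3.13. The summed level of the list was 279, 408 and 278 at Te, Tm and Tl, a sum made up mostly of the brightest probe of Trp63 (-0.68 at Tl and 0.01 at Tm), whose other probe was 4.04 above Te at Tl and 3.15 at Tm. Of 9 genes on the Langerhans and dendritic list, 3 were 2-fold higher at both stages: Cd207, or langerin (2.13 at Tl and 2.99 at Tm), Epcam (2.71 and 2.80) and Itgax (2.17 and 2.73). At Tl 2 others were 2-fold lower, Ccr7 (-1.70, with 0.22 at Tm) and Cd209a (-1.51, with -0.58 at Tm), and the median of this list was -0.91, against 0.19 at Tm. The summed level of that list was 644, 794 and 429 at Te, Tm and Tl, a sum made up mostly of Cd74 and H2-Ab1. Cd207, Epcam and the keratins were higher on both later arrays, as Cd3e, Cd2 and Il2rb were. However, 6 of the 9 Langerhans and dendritic genes lay below Te at Tl and 4 at Tm. Of all named genes, 22.2% were 2-fold higher at Tl and 29.1% at Tm, so a shared direction is common. A link between these genes was not tested.

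A list of genes known from epidermal T cells, which shares Cd3e and Il2rb with the group, gave no single direction: 5 of 12 genes with a value were 2-fold higher at Tl and 2 lower, and at Tm 6 of 13 were higher and none lower. Cd3e and Il2rb are among the higher genes in both counts, and Cd3e was the reason for choosing the group. The counts are thus no separate result. Of all named genes, 22.2% were 2-fold higher at Tl and 29.1% at Tm. Cd7 was 1.09 above Te at Tl and 1.93 at Tm, Ctla2a 1.79 and 0.64, Ccr10 was -1.16 and -0.91, and Cxcr6 was -0.51 at Tl. Xcl1, a chemokine of T cells and natural killer cells singled out after its values were seen, was dim at Te and measured on both later arrays, with lower bounds of 2.34 at Tl and 2.34 at Tm. The summed level of the list was 65.7, 110 and 58.8 at Te, Tm and Tl, a sum made up mostly of Fcer1g (-0.42 at Tl and 0.65 at Tm). It is therefore not a measure of T cells.

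Of 18 natural killer and cytotoxic genes with a value at Tl, 3 were 2-fold higher and 4 lower, and of 17 at Tm, 4 were higher and 5 lower. Nkg7 (1.16 and 2.17) and Klrb1c (1.31 and 1.72) were higher, and Ncr1 (-1.26 at Tl and a bound of -1.02 at Tm) and Cd160 (-1.20 and -1.29) were lower. Gzmb, a granzyme of activated cytotoxic cells, was dim on all 3 arrays. The summed level of the list was 181, 262 and 128 at Te, Tm and Tl. This sum is made up mostly of Tyrobp (-0.58 at Tl and 0.54 at Tm), which is also on the macrophage list, and Fcer1g. It is therefore not a measure of natural killer cells. None of the 5 genes of the B cell list with a value was higher on a later array, and the defining marker Cd79a was dim on all 3 arrays. The summed level of the B cell list was 89.6 at Te, against 30.0 at Tm and 25.2 at Tl. This sum is made up mostly of Cd22, which was -1.94 at Tl and -1.64 at Tm.

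Thy1 is also carried by fibroblasts and other stromal cells. Of 12 fibroblast genes with a value at Tl, 3 were 2-fold higher and 3 lower, and of 11 at Tm, 2 were higher and 3 lower. The list's median was 0.55 at Tl and 0.32 at Tm. Fbn1 was 1.65 above Te at Tl and 0.66 at Tm, Pdgfrb 1.54 and 0.32, and Fap, dim at Te and chosen after its values were seen, had lower bounds of 5.37 and 4.71. Col1a1 was -1.24 and -0.82, Dcn was -1.06 and -1.88, and Pdgfra was dim at Te and Tm with a lower bound of 0.91 at Tl. The summed level was 145, 118 and 95.7 at Te, Tm and Tl. Its largest term on every array was Vim (-0.24 at Tl and 0.45 at Tm), so the sum is not a measure of fibroblasts. Of 10 endothelial genes, 1 was 2-fold higher and 1 lower at Tl, and none was higher and 5 were lower at Tm, where the median was -0.98. Pecam1 was -0.19 at Tl and -0.95 at Tm. None of the mast cell and neutrophil genes with a value was 2-fold higher on either later array.

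In such a pool of sorted cells, more cells of a type and more RNA per cell of that type cannot be told apart. The 5 genes whose levels over the 3 arrays came nearest to the pattern of Cd3e, among 13077 genes measured on all arrays, were Ppp1r13l, C77080, Cyp4f37, Dgat2 and Galnt12, with root mean square distances of 0.03 to 0.07 on the log2 scale after centering each gene on its own mean. Of the other 8 genes of the group that were measured on all arrays, Cd2 came nearest, at a distance of 0.67 (rank 301), followed by Il2rb at 0.82 (rank 533) and Thy1 at 1.18 (rank 2259). The chains that share the complex with Cd3e came next, Cd3g at 1.43 (rank 4560) and Cd3d at 1.59 (rank 6076). Both ranks lie before the middle of the 13077 genes. Lat (2.06), Lck (2.12) and Zap70 (2.30) were last of the 8. The distance also counts the size of a change, and Cd3e was chosen for a large one. A pattern over 3 arrays is met by many genes, and these distances are a description.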

How the data were processed

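Per the labels and the study's methods, RNA of CD11b+Gr1-F4/80+ cells from 3 pooled littermates per stage was amplified, labeled with Cy3 and hybridized to Agilent mouse arrays, 1 per stage. The authors deposited linear spot intensities as Feature Extraction gave them, corrected for background and not scaled between arrays. A second deposited table holds log2 values of 36409 probes, centered on each probe's median, and was used only as an alternative.

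Control spots and outlier spots (162 at Te, 274 at Tm and 281 at Tl of 59305) were left out and the spots of a probe were averaged. Signals were taken as log2 relative to each array's 75th percentile over all non-control probes. Symbols came from the RefSeq transcript of a probe (GRCm38.p6), for 26056 probes, and a gene is its probe with the highest mean log2 level. Bounds were computed against the dim probe's own signal or the lowest signal well above background on that array, whichever was higher, and none was given where it was under 1-fold. No spot was saturated. The number of arrays limits the precision. In a simulated comparison of Tl with Te over 55663 probes, 197 of 200 probes with a known change were measured, and all 197 passed 2-fold in the right direction. The planted changes were all larger than 2-fold and lay on brighter probes with little added scatter. The simulation thus checks the computation, and cannot tell how reliable a call is near 2-fold or on a dim probe.

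The 10 genes, the other gene lists and the rule for naming genes (the 4 largest Tl differences per list, the defining markers and the 5 nearest patterns) were chosen with earlier results of these data known. The day of Te follows the labels, and the text of the study gives another day for that stage. Alternatives were 4 other scalings, normexp background correction (offset 50, limma 3.58.1 in R 4.3.3), other rules for dim probes, outliers and probes, the log2 table, and the exchange of the Tm and Tl arrays. Python 3.11.15 with numpy 2.4.6 and pandas 2.3.3 was used.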

Additional observations from a re-analysis of the deposited data

How the results depend on the processing

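The count of genes 2-fold above Te at Tm was 4 to 7 under all alternatives, against 5. At Tl it was 5 or 6, except that it fell to 3 with the percentile over probes measured on all arrays and with normexp. The median of the 10 genes moved with the scale of the arrays. At Tl it was 0.54, but 0.80 (9 genes with a value) with the percentile over measured probes, 1.06 with median scaling, 1.02 with quantile normalization, 1.70 without scaling, 0.31 with normexp (9 genes), 1.63 in the authors' log2 table (8 genes), 1.01 with detection on both arrays (9 genes) and 1.07 with the later arrays exchanged. At Tm it was 1.07, but 0.69 with the percentile over measured probes, 1.62 with median scaling, 1.33 without scaling, 0.54 with normexp, 0.71 with detection on both arrays and 0.54 with the arrays exchanged. The median of all named genes moved too, at Tl from 0.15 to 0.65 with median scaling and to 1.32 without scaling, and at Tm from 0.22 to 0.86 and 0.52. Some alternatives leave a gene with a single probe measured on all arrays as it is. Of 212 values of single genes under the alternatives, 97 moved by less than the technical SD, often for that reason, and 9 changed sign. Among values past 2-fold these were Lat at Tl without scaling (0.027) and Zap70 at Tl with the median over its probes (0.0535). The others were Cd3d at Tl with median scaling (0.35), without scaling (0.99) and with the arrays exchanged (0.71), Cd3d at Tm with the exchange (-0.17), Lck at Tl without scaling (0.48), and Lat at Tm with median scaling (0.23) and quantile normalization (0.18). No replicate could be left out with 1 array per stage. No paired analysis was possible because each stage has 1 array. Dim probes limit Cd247 and the second probe of Zap70.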
